A study of Mus musculus with 16 samples.

Results

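Notch receptors are switched on by cutting. The 9 genes described here encode enzymes and partners of that process: the surface proteases Adam10 and Adam17, the γ-secretase subunits Ncstn and Psen2, the DNA-binding factor Rbpj, its coactivators Maml1, Maml2 and Maml3, and the ubiquitin ligase subunit Fbxw7. They were chosen by name, as the rows of the deposited tables that carry these symbols, and they are 9 of the 22096 gene symbols listed. The values of a gene's annotated transcripts were added up within each library, and all 9 genes were measured in every library and passed the filter on low values.

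When a ligand on a neighbouring cell pulls on a Notch receptor, Adam10 sheds the receptor's outer part, and γ-secretase then cuts within the membrane and frees the Notch intracellular domain. That domain enters the nucleus, binds Rbpj on DNA and recruits a Mastermind-like protein, which brings in histone acetyltransferases and turns target genes on. Without the domain, Rbpj sits on the same sites with corepressors. Fbxw7 marks the phosphorylated domain for destruction and so ends the signal. In the endothelium Notch signalling is known for arterial identity and for holding back tip cells at growing sprouts.

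RNA was sequenced from CD31-sorted cells of whole mouse embryos at embryonic day 9.5, to ask how the dose of Notch1 affects endothelial gene expression. The 16 libraries carried 6 pairs of Notch1 alleles. In 12/- embryos (3 libraries) a deleted Notch1 allele was paired with the allele called 12, whose intracellular domain comes from Notch2. In the 12/vg embryo library (1 library) the 12 allele was paired with vg, a valine-to-glycine substitution that moves the γ-secretase cut and leaves a less stable intracellular domain. The other genotypes paired a wild-type allele with 12 (+/12), with vg (+/vg), with the deletion (+/-) or with a second wild-type allele (+/+), with 3 libraries each. Replicate numbers follow accession order and pair no libraries across genotypes. The labels describe the endothelium as dysfunctional in 12/-, as partly so in 12/vg, and as normal in the other 4 genotypes, which are called the 4 normal groups here. The labels used here give neither the strain, nor the part of Notch1 that was deleted, nor the number of embryos behind a library. P-values therefore speak of differences among libraries, some of which may be technical.

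Levels are scaled FPKM, the authors' fragments per kilobase of transcript, relative to the fragments mapped, after division by a median-ratio factor per library. The 12/vg library and +/- replicate 2 were shallow, at 0.262 and 0.189 gigabases of aligned sequence, against 1.11 to 1.80 in the other 14. All 8 pan-endothelial markers were present in every library, with a summed level of 643 to 814 in 12/-, 695 in 12/vg and 572 to 748 in the 4 normal groups. All 6 megakaryocyte and platelet markers were present too, at summed levels of 374 to 1569 in 12/-, 585 in 12/vg and 258 to 2026 in the 4 normal groups. The 8 erythroid markers summed to 79.5 to 334 in 12/-, 24.2 in 12/vg and 92.6 to 245 in the 4 normal groups, so 12/vg stood below every other library. The 4 epithelial markers summed to 17.2 to 32.0 in 12/-, 26.8 in 12/vg and 4.29 to 61.2 in the 4 normal groups, and the 8 cardiomyocyte markers to 28.8 to 42.9 in 12/-, 43.4 in 12/vg and 19.9 to 77.3 in the 4 normal groups. The 5 mesenchyme markers stayed at 17.5 or less, the 4 neural markers at 3.06 or less, and the 3 macrophage markers at 0.524 or less. No marker was at 0 in all libraries. Notch1, the edited gene, ran from 15.4 to 19.7 in 12/- against 14.5 to 16.0 in +/12, and from 16.4 to 23.2 in +/- against 17.4 to 23.3 in +/+, so its summed level did not separate libraries with a deleted allele. Library numbers attached to the deposited tables fall into a low range (9 libraries: all of 12/-, 12/vg and +/12, and replicate 3 of +/- and of +/vg) and a high range (7 libraries, with all of +/+). The labels name no batch. Between 12/- and +/+, and between +/12 and +/+, the number range and the genotype cannot be told apart. Only +/- and +/vg hold libraries of both ranges. A covariate for the number range, used below as an alternative, is therefore estimated within these genotypes alone and carried over to the others. Differences of 12/- from +/+, from +/- and from the mean of the 4 normal groups with this covariate rest on that assumption. The difference of +/12 from +/+ with the covariate does so too. In these bulk samples fewer cells of a type and less RNA per cell cannot be told apart either.

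The transcripts of all 9 genes were present in every genotype, including the embryos with dysfunctional endothelium, and none of the 9 passed the test in any comparison of the full set of libraries. With limma on log2(scaled FPKM + 1), 0 of 9 had a Benjamini-Hochberg adjusted p under 0.05 across the 5 replicated genotypes (moderated F test, where 0.303% of the 10550 genes tested were called). The adjusted p-values of the 9 genes in that limma F test ran from 0.592 to 0.938, and 0 had an unadjusted p under 0.05. In limma 0 of 9 were called in 12/- against +/12 (0.209% of genes tested), in 12/- against +/+ (0.607%), in 12/- against +/- (0.569%) or in 12/- against the mean of the 4 normal groups (0.787%). At an unadjusted p under 0.05 in limma there were 1, 2, 1 and 3 of the 9 in these 4 comparisons, beside 559, 1286, 1239 and 1215 of all genes tested. Counts this small cannot place the 9 genes above or below the background. These comparisons share the 3 12/- libraries, and the last shares the libraries of the 4 normal groups as well, so they are not independent.

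The mean levels of the 9 genes ran from 2.88 to 12.8 scaled FPKM. Averaged over the 16 libraries, Ncstn had the highest level, 12.8 ± 2.64 scaled FPKM (SD, n = 16), followed by Adam10 at 12.4 ± 1.88, Adam17 at 9.68 ± 1.94, Maml1 at 7.52 ± 1.13 and Rbpj at 6.62 ± 0.896. The other 4 genes lay lower, with Fbxw7 at 3.94 ± 0.936, Maml2 at 3.48 ± 0.691, Maml3 at 3.20 ± 1.04 and Psen2 at 2.88 ± 0.838. FPKM is a value per length, so these levels can be set against each other. Ncstn stood above 69.4% of the genes tested by mean level and Psen2 above 23.5%. The only gap between neighbours that held in every library was the step between Rbpj and Fbxw7 (16 of 16). Ncstn was above Adam10 in 9 of 16 libraries, Adam10 above Adam17 in 12, Adam17 above Maml1 in 14 and Maml1 above Rbpj in 11, and Fbxw7 was above Maml2 in 12, Maml2 above Maml3 in 11 and Maml3 above Psen2 in 10. The order within the upper 5 and within the lower 4 therefore changed with the library.

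Between the 5 replicated genotypes the means of a gene differed little, as the panels of scaled FPKM by library show. The ratio of the highest to the lowest genotype mean was 1.62 for Maml3, 1.60 for Fbxw7, 1.46 for Ncstn, 1.43 for Psen2, 1.42 for Adam17, 1.32 for Maml1, 1.24 for Adam10, 1.19 for Maml2 and 1.18 for Rbpj. The residual SD within genotypes, on the log2 scale, ran from 0.174 for Maml1 to 0.333 for Psen2, and was below the median of all genes tested (0.240) for 6 of the 9.

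The surface proteases come first in the pathway. Adam10 (chromosome 9, 70526808 to 70628036, mm9), the protease of the ligand-induced cut, had 11.5, 10.8 and 11.6 scaled FPKM in 12/- replicates 1 to 3 and 12.9 in 12/vg, against 13.4, 11.8 and 13.5 in +/12, 9.69, 10.2 and 14.6 in +/vg, 12.8, 12.7 and 16.4 in +/- and 9.70, 12.0 and 14.6 in +/+. The 3 12/- libraries were close to each other and lay below all of +/12 and all of +/-, but inside the ranges of +/vg and +/+. Against the mean of the 4 normal groups the difference was -0.13 ± 0.13 in log2 units (SE; adjusted p = 0.761 in limma). It was -0.17 ± 0.17 against +/12 (adjusted p = 1), -0.27 ± 0.17 against +/- (adjusted p = 0.538) and -0.07 ± 0.17 against +/+ (limma adjusted p = 0.907). With the number range as a covariate the Adam10 difference was larger, at -0.38 ± 0.13 against the mean of the 4 normal groups (unadjusted p = 0.0126, limma adjusted p = 0.438), -0.56 ± 0.16 against +/- (unadjusted p = 0.00415, limma adjusted p = 0.338) and -0.50 ± 0.19 against +/+ (unadjusted p = 0.0206, limma adjusted p = 0.654). That against +/12, which lies within the low range, stayed at -0.17. Against +/+ the sign rests on single libraries, with -0.21 without +/+ replicate 1 and 0.06 without +/+ replicate 3. In +/vg and +/- the highest Adam10 value was that of replicate 3, the only library of each with a low number.

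Adam17 (chromosome 12, 21329370 to 21379452), which sheds many membrane proteins and can cut Notch without ligand, had 12.5, 11.0 and 9.35 scaled FPKM in 12/- and 14.1 in 12/vg, against 8.63, 11.3 and 10.7 in +/12, 8.63, 6.40 and 8.14 in +/vg, 7.61, 9.62 and 9.80 in +/- and 10.0, 7.91 and 9.04 in +/+. The 2 highest values of the series were those of 12/vg and of 12/- replicate 1, and 12/- overlapped +/12, +/- and +/+ but lay above all of +/vg. Against the mean of the 4 normal groups it was higher by 0.27 ± 0.12 on the log2 scale, with an unadjusted p of 0.0467 and an adjusted p of 0.422 in limma. The difference was 0.18 with the number range as a covariate and 0.17 without 12/- replicate 1. The Adam17 locus overlaps that of Iah1, and whether the libraries were stranded is not stated in the labels.

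The balance of the proteases can be given within a library, where the scaling drops out. The ratio of Adam17 to Adam10 was 1.09, 1.02 and 0.808 in 12/- (mean 0.972 ± 0.146, SD, n = 3) and 1.10 in 12/vg, against 0.728 ± 0.158 over the 12 libraries of the 4 normal groups, where it ran from 0.558 to 1.03. Adam17 was the higher of the pair in 4 libraries: 12/- replicates 1 and 2, 12/vg and +/+ replicate 1. Replicate 3 of 12/- lay inside the range of the normal groups, so the ranges overlap. The difference in this ratio was not tested, because the ratio was looked at with the values of both genes known.

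**Figure D1:**
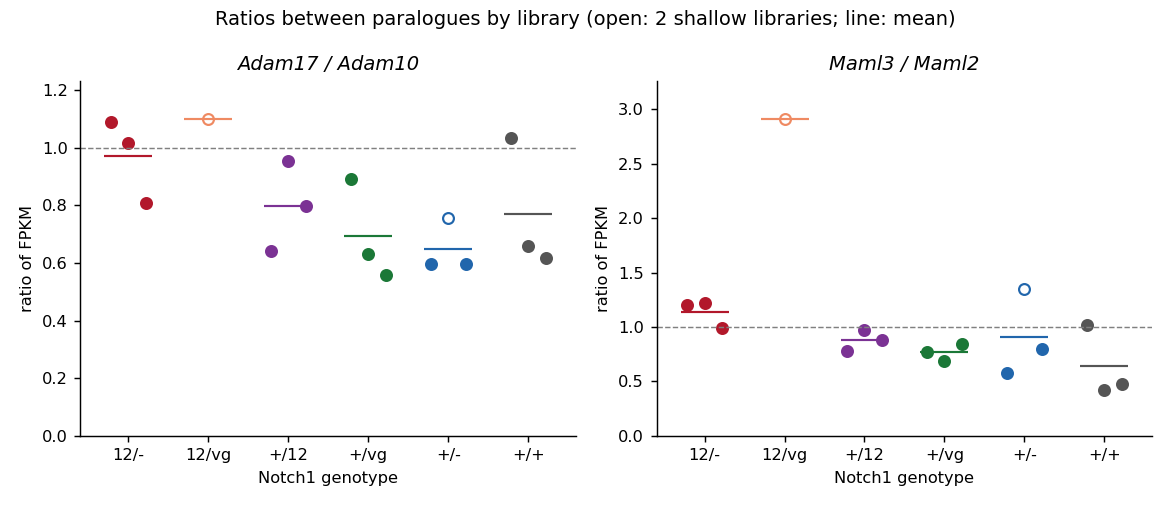
Ratio of Adam17 to Adam10 (left) and of Maml3 to Maml2 (right) in each of the 16 libraries, on linear axes from 0, grouped by Notch1 genotype. Points are libraries, open points the 2 shallow ones, lines genotype means, and the dashed line marks equal levels. Adam17 was above Adam10 in 4 libraries and Maml3 above Maml2 in 5, with 12/- replicates 1 and 2 and 12/vg in both sets.

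Ncstn (chromosome 1, 173996144 to 174012880) encodes nicastrin, the γ-secretase subunit that receives the shed receptor stub. It had 16.9, 13.9 and 15.4 scaled FPKM in 12/- and 16.1 in 12/vg, against 9.11, 12.4 and 11.7 in +/12, 10.9, 14.5 and 11.5 in +/vg, 12.1, 11.3 and 17.7 in +/- and 11.8, 9.33 and 10.6 in +/+. All 3 12/- libraries were above all of +/12 and all of +/+, while the highest value of the series belonged to +/- replicate 3. Ncstn had the smallest p of the 9 in the F test across genotypes, 0.0754 before adjustment in limma.

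Against the mean of the 4 normal groups, Ncstn in 12/- was higher by 0.36 ± 0.14 on the log2 scale (SE, 95% interval 0.06 to 0.66), with a limma adjusted p of 0.332. The difference was 0.45 ± 0.18 against +/12 (adjusted p = 0.841), 0.51 ± 0.18 against +/+ (adjusted p = 0.275) and 0.18 ± 0.18 against +/- (limma adjusted p = 0.710). With the number range as a covariate the difference was 0.28 against +/+, 0.04 against +/- and 0.23 against the mean of the 4 normal groups. The comparison with +/12 lies within the low range. That with +/- was 0.07 without +/- replicate 2 and 0.37 without +/- replicate 3. The Ncstn locus overlaps that of Copa.

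Psen2 (chromosome 1, 182157135 to 182186431) encodes presenilin 2, a catalytic subunit of γ-secretase. It had 2.09, 2.10 and 4.25 scaled FPKM in 12/- and 3.83 in 12/vg, against 3.75, 2.77 and 3.27 in +/12, 2.16, 2.67 and 3.63 in +/vg, 1.65, 2.96 and 4.15 in +/- and 2.07, 2.71 and 2.06 in +/+. Psen2 varied most within genotypes, and the 2 highest values, in 12/- replicate 3 and +/- replicate 3, came from different genotypes. Its difference in 12/- against the mean of the 4 normal groups was -0.02 ± 0.20 on the log2 scale (95% interval -0.46 to 0.42, limma adjusted p = 0.980). A covariate for the number range moved it to -0.35 ± 0.22 (limma adjusted p = 0.811), and the Psen2 difference was then -0.40 against +/- and -0.38 against +/+, where it was -0.03 and 0.18 without the covariate. In +/12 all 3 values were above those of +/+, by 0.38 ± 0.26 (limma adjusted p = 0.927), and this difference was -0.18 with the number range as a covariate.

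The deposited tables split Psen2 over 2 annotated transcripts that end at the same place and start at mm9 positions 182186431 (NM_001128605) and 182176081 (NM_011183) on the minus strand. NM_001128605 carried 98.1% or more of the Psen2 FPKM in 15 libraries. In +/12 replicate 1, NM_011183 carried 81.1%, with 2.98 FPKM as deposited, while NM_001128605 had 0.696. In the other 15 libraries NM_011183 had 0.0537 FPKM or less. The transcripts are annotated with 1997 and 2006 bases and share their end, and the deposited split between them is an estimate of the authors' software, given without an error.

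Because the Psen2 signal moved between these starts in a single library, the 250 bases before each start are shown, from RefSeq (GRCm38.p6, minus strand). The capitals mark TTCCCAC, the reverse complement of GTGGGAA, a sequence that Rbpj binds.
Psen2 before NM_001128605, chr1:180256301-180256550: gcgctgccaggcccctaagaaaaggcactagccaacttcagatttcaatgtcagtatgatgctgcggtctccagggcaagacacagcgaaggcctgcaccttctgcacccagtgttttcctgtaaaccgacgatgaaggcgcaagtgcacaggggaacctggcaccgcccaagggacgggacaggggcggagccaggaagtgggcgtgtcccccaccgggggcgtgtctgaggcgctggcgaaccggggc
Psen2 before NM_011183, chr1:180245951-180246200: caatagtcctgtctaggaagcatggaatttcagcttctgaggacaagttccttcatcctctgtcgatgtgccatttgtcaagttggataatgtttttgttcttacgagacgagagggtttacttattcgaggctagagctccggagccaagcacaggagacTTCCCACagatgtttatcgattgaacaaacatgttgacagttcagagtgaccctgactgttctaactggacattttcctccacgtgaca
The window before NM_001128605 has a GC content of 62.8% and holds no match on either strand. The window before NM_011183 has a GC content of 44.8% and holds 1. Over all 32851 RefSeq promoter windows of this length, 5.42% hold at least 1 match on either strand, and 1 of the 14 windows of the 9 genes does. The median GC content of all windows was 52.4%. A match is a description of the letters, not a binding site.

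Further γ-secretase subunits were read from a list. Psenen, which encodes the small subunit that helps mature the complex, had 123 ± 14.4 in 12/- and 104 ± 24.2 in the 4 normal groups, with its lowest value, 39.6, in the shallow +/- replicate 2. Aph1a, a scaffold subunit, had 7.32 ± 0.597 in 12/- and 6.01 ± 1.17 in the 4 normal groups. By genotype Aph1a averaged 7.35 ± 1.60 in +/+, much as in 12/-, and 5.70 in +/12, 5.24 in +/vg and 5.74 in +/-. In +/vg against +/+ Aph1a differed by -0.41 ± 0.15 on the log2 scale (unadjusted p = 0.0154, limma adjusted p = 0.561). The Aph1a difference in 12/- against the mean of the 4 normal groups, 0.26 ± 0.12 on the log2 scale, had an unadjusted p of 0.0431 and a limma adjusted p of 0.410. The other scaffold genes, Aph1b and Aph1c, averaged 0.263 and 0.0667 over all libraries and fell below the filter. Neither Psenen nor Aph1a was called in limma in any of the 7 comparisons, and in the 4 that involve 12/- Aph1a against the 4 normal groups was the only value of the list with an unadjusted p under 0.05.

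Among the nuclear partners, Rbpj (chromosome 5, 53947018 to 54048684) had the smallest ratio between genotype means. Its values ran from 5.28 to 7.28 scaled FPKM in 12/-, with 6.77 in 12/vg, against 5.50 to 6.75 in +/12, 5.77 to 6.62 in +/vg, 6.61 to 7.98 in +/- and 5.13 to 7.90 in +/+. The ranges of the 5 replicated genotypes overlapped, those of +/- and +/vg the least, and the 12/vg value lay just above those of +/12 and +/vg. Its difference in 12/- from the mean of the 4 normal groups was -0.03 ± 0.12 on the log2 scale, with a 95% interval of -0.30 to 0.23 (limma adjusted p = 0.947).

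Maml1 (chromosome 11, 50069137 to 50105838), the most abundant coactivator of the family here, had 9.18, 7.54 and 6.25 scaled FPKM in 12/- and 8.94 in 12/vg, against 7.19, 5.33 and 6.75 in +/12, 7.67, 8.50 and 6.31 in +/vg, 7.73, 8.89 and 8.86 in +/- and 6.70, 7.56 and 6.97 in +/+. The 12/- libraries spread over most of the range of the series. The difference in 12/- against the mean of the 4 normal groups was 0.05 ± 0.12 on the log2 scale (limma adjusted p = 0.920). All 3 +/- libraries were above all 3 +/+ libraries, by 0.23 ± 0.15, which limma did not call (adjusted p = 0.730).

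Maml2 (chromosome 9, 13424433 to 13513977) ran from 3.12 to 3.70 scaled FPKM in 12/-, with 2.07 in 12/vg, against 3.01 to 3.82 in +/12, 3.09 to 4.46 in +/vg, 2.29 to 4.49 in +/- and 3.41 to 3.77 in +/+. The lowest values belonged to the 2 shallow libraries, 12/vg and +/- replicate 2. Its difference in 12/- against the mean of the 4 normal groups was -0.08 ± 0.14 on the log2 scale (limma adjusted p = 0.881).

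Maml3 (chromosome 3, 51491535 to 51908928) had 3.76, 3.94 and 3.68 scaled FPKM in 12/- and 6.02 in 12/vg, against 2.34, 3.38 and 3.37 in +/12, 3.37, 3.08 and 2.60 in +/vg, 2.58, 3.09 and 3.00 in +/- and 3.85, 1.53 and 1.64 in +/+. The 3 12/- values lay within a narrow span above all values of +/12, +/vg and +/-. Replicate 1 of +/+ was in that span too, well above the other +/+ libraries. The difference in 12/- was 0.35 ± 0.17 against the mean of the 4 normal groups (limma adjusted p = 0.445), 0.26 ± 0.21 against +/12 (adjusted p = 1), 0.30 ± 0.21 against +/- (adjusted p = 0.589) and 0.59 ± 0.21 against +/+ (limma adjusted p = 0.286). The last result depended on the library left out, and ran from 0.42 to 0.89. The highest value, 0.89 ± 0.14 without +/+ replicate 1, passed the test (limma adjusted p = 0.0216). Fitted beside a covariate for the number range, the difference against +/+ was 0.67 (limma adjusted p = 0.746).

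The family was also set side by side within each library. Maml1, Maml2 and Maml3 made up 51.4%, 22.9% and 25.7% of the summed Maml FPKM in 12/- (means, n = 3) and 53.3%, 26.3% and 20.3% in the 4 normal groups (n = 12). The ratio of Maml3 to Maml2 was 1.14 ± 0.126 in 12/- and 2.91 in 12/vg, against 0.798 ± 0.253 in the normal groups, where it ran from 0.417 to 1.35. Maml3 was above Maml2 in 5 libraries: 12/- replicates 1 and 2, 12/vg, +/- replicate 2 and +/+ replicate 1. As the plot of paralogue ratios shows, the 12/- libraries lay at the upper end of the normal range and not beyond it. The top of that range, 1.35, came from the shallow +/- replicate 2. The next normal value was 1.02, in +/+ replicate 1, below the 1.205 and 1.217 of 12/- replicates 1 and 2 and above the 0.993 of replicate 3. This ratio was not tested either.

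Fbxw7 (chromosome 3, 84619499 to 84783120), the substrate-binding subunit of the ubiquitin ligase that ends the signal, had 4.09, 3.00 and 1.91 scaled FPKM in 12/- and 3.45 in 12/vg, against 3.21, 4.14 and 4.69 in +/12, 4.56, 4.66 and 3.70 in +/vg, 4.48, 6.12 and 3.79 in +/- and 4.33, 3.28 and 3.56 in +/+. The 2 lowest values of the series were 12/- replicates 3 and 2, and replicate 1 lay among the normal groups. The highest value came from the shallow +/- replicate 2. Against the mean of the 4 normal groups Fbxw7 differed by -0.40 ± 0.16 on the log2 scale (95% interval -0.76 to -0.05, unadjusted p = 0.0277, limma adjusted p = 0.360). The difference was -0.55 ± 0.21 against +/- (adjusted p = 0.319), -0.35 ± 0.21 against +/12 (adjusted p = 0.997) and -0.27 ± 0.21 against +/+ (limma adjusted p = 0.624). Without the 2 shallow libraries that against +/- was -0.39 ± 0.21 (limma adjusted p = 0.603). With the number range as a covariate the difference against +/+ was 0.05, that against +/- was -0.34 and that against the mean of the 4 normal groups was -0.22. Over the alternatives the last ran from -0.60, without 12/- replicate 1, to -0.19, without 12/- replicate 3, and it was -0.21 with the highest transcript only. A small gene, Dear1, lies inside the Fbxw7 locus.

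The deposited transcripts of Fbxw7 start at 3 places and share their end. NM_001177774 had the largest median share of the gene's FPKM, 70.9%, and more than 50% in 12 libraries. NM_080428 exceeded 50% in 2 libraries, +/vg replicate 1 (60.6%) and +/+ replicate 3 (60.5%), and NM_001177773 reached at most 48.9%, in +/- replicate 1. Shares of NM_001177774 in 12/- were 49.4%, 92.5% and 81.2%, and in +/+ they were 78.0%, 88.1% and 27.9%, so the shares spread widely within a genotype. Rbpj was carried by NM_001080927 in all libraries, with 70.5% as its lowest share, in 12/vg. Maml2 was carried by NM_001013813, with 64.9% as its lowest share, in +/+ replicate 2, where NM_173776 had 35.1%. Adam10, Adam17, Ncstn, Maml1 and Maml3 are each listed with 1 transcript.

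**Figure D2:**
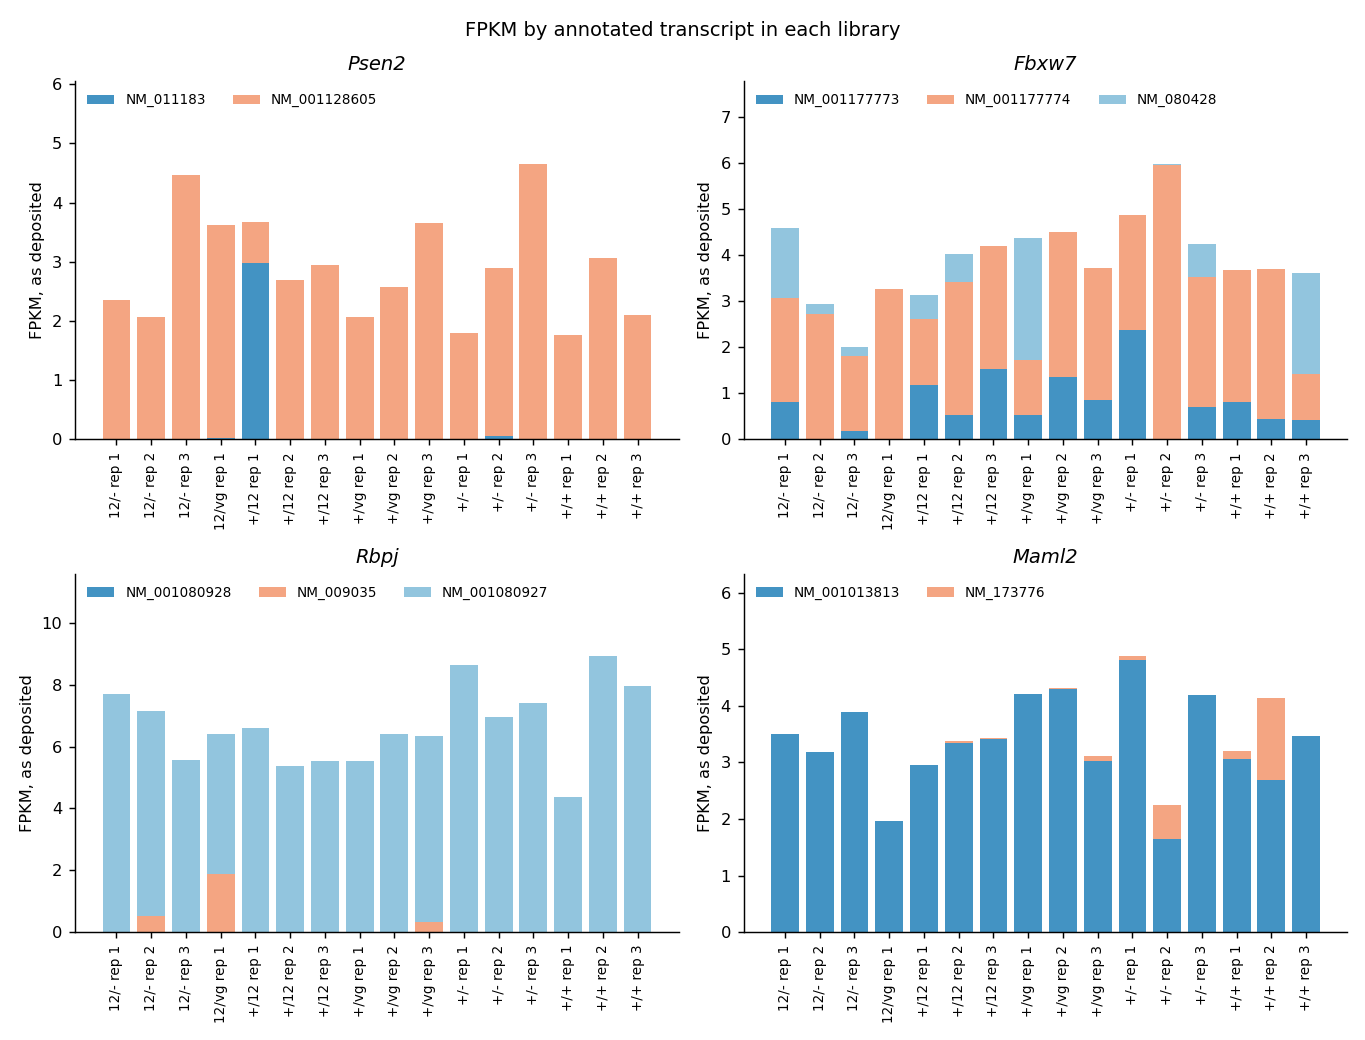
FPKM as deposited (vertical axis), stacked by annotated RefSeq transcript, for the 4 genes listed with more than 1 transcript, in each of the 16 libraries. NM_011183 makes up 81.1% of the Psen2 bar in +/12 replicate 1 and almost nothing elsewhere, and the Fbxw7 bars are split differently from library to library.

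The stacked bars of transcripts in each library also give each gene's total. Psen2 in +/12 replicate 1, the library with the other transcript, had a total of 3.75 scaled FPKM, inside the range of the other libraries. Transcript shares were not tested between genotypes.

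Across the genes, non-overlap of libraries was no more than a few cases per comparison. In 12/- against +/12, 3 of 9 genes had libraries that did not overlap (Ncstn and Maml3 higher, Adam10 lower), beside 14.8% of all genes tested. In 12/- against +/+ there was 1 of 9 (Ncstn higher), beside 19.8% of all genes. Against +/- there were 2 of 9 (Maml3 higher, Adam10 lower), beside 14.2%. None of the 9 had 12/- libraries wholly outside the range of the 12 libraries of the normal groups, beside 2.84% of all genes.

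**Figure D3:**
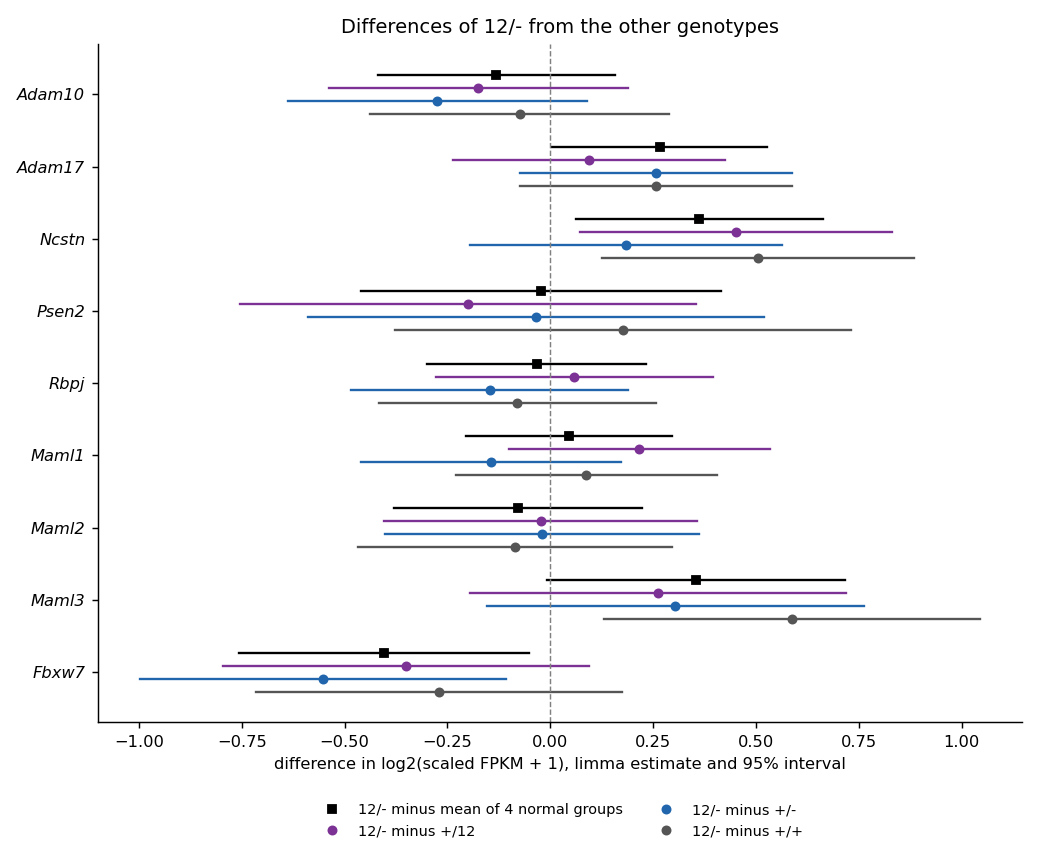
Differences of 12/- from the mean of the 4 normal groups (squares), from +/12, from +/- and from +/+ (circles) for the 9 genes, in log2(scaled FPKM + 1) on the horizontal axis. Lines are 95% intervals from limma; intervals of Adam17, Ncstn and Fbxw7 against the mean of the 4 normal groups leave out 0 before adjustment for 10550 genes, and the estimates run from -0.55 (Fbxw7 against +/-) to 0.59 (Maml3 against +/+).

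The plot of differences with their intervals shows what sizes the fit of all 16 libraries allows on the scale of log2(scaled FPKM + 1). For 12/- set against +/12, +/- or the mean of the 4 normal groups, the 95% intervals of all 9 genes lay within 1 on the log2 scale in either direction. Against +/+ this held for 8 of 9, and the upper bound for Maml3 was 1.05. A gene tested at log2(scaled FPKM + 1) with a low level has its change understated, which touches Psen2, Maml2, Maml3 and Fbxw7 most. With 0.1 added in place of 1, intervals reached -1.25 for Fbxw7 against +/-, -1.01 for Fbxw7 against +/12 and 1.41 for Maml3 against +/+. Without +/+ replicate 1 intervals reached -1.01 for Fbxw7 against +/-, and 1.01 for Ncstn and 1.21 for Maml3 against +/+. With the number range as a covariate they reached -1.07 for Psen2 and 1.37 for Maml3 against +/+. The limit of 1 therefore depends on the setting. The median difference of the 9 genes was 0.06 in 12/- against +/12, 0.09 against +/+, -0.03 against +/- and -0.02 against the mean of the 4 normal groups, where the medians over all genes tested were between -0.0048 and 0.

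The genotypes with a single changed allele and normal endothelium were compared with +/+ to ask what 1 altered copy does. All +/12 libraries have low numbers and all +/+ libraries high ones. In that comparison, the Psen2 values included, the allele and the number range cannot be told apart. In limma 0 of 9 genes were called in +/12, in +/vg or in +/- against +/+, and 0 had an unadjusted p under 0.05. None of the 10550 genes tested was called in these 3 comparisons either (0.0% in each), with 567, 793 and 792 at an unadjusted p under 0.05. The 27 differences of the 9 genes ran from -0.20 to 0.38 on the log2 scale, and the smallest limma adjusted p was 0.697. Ncstn in +/- against +/+ had the smallest unadjusted p, 0.0901, at 0.32 ± 0.18 (limma), and it differed by 0.13 without +/- replicate 3. Without the 2 shallow libraries it differed by 0.44 ± 0.18 (unadjusted p = 0.0356, limma adjusted p = 0.787). Libraries did not overlap for 1 of 9 genes in +/12 (Psen2, 12.6% of all genes), for 0 in +/vg (13.6%) and for 1 in +/- (Maml1, 7.79%). Maml3 had the same sign in all 3, at 0.33 ± 0.21 in +/12, 0.33 ± 0.21 in +/vg and 0.28 ± 0.21 in +/-, but these values share the +/+ libraries. Over the libraries left out they ran from 0.16 to 0.63, from 0.16 to 0.63 and from 0.12 to 0.59. The highest values were those without +/+ replicate 1. The median of the 9 genes was 0.08, 0.10 and 0.21 in +/12, +/vg and +/-, with 8 of 9 above 0 in +/-.

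The 12/vg genotype has 1 library and no replicate check, and it is shallow. For 6 of the 9 genes its value lay inside the range of the other 15 libraries. The share over all genes tested was not computed for this comparison, so the count cannot be called high or low. Adam17 (14.1 scaled FPKM) and Maml3 (6.02) were above all others, whose highest values were 12.5 and 3.94, and Maml2 (2.07) was below all others, whose lowest was 2.29. In 12/- the means of Adam17 (11.0) and Maml3 (3.79) were also above those of the 4 normal groups (8.98 and 2.82), with overlapping libraries. For Adam10, Psen2 and Rbpj the 12/- mean was below that of the normal groups and the 12/vg value above it. Maml2 was low in both shallow libraries. The erythroid sum of 12/vg, 24.2, was the lowest of the series, and its part in these values was not tested. Mean read depth over the 9 genes was 0.513 to 4.00 in 12/vg and 0.424 to 2.35 in +/- replicate 2, against at least 2.64 in the 14 deep libraries. For every gene but Fbxw7 it was lower in +/- replicate 2 than in 12/vg. Counting error is therefore larger in these 2 libraries, and it could not be put into an interval because the tables hold no counts.

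The levels of the 9 genes were set against the summed markers of 8 cell types over the 16 libraries, as 72 relations. None passed an adjusted p of 0.05 with 100000 permutations each. The strongest were Psen2 with the megakaryocyte and platelet markers and Adam17 with the pan-endothelial markers. Psen2 gave a Pearson r of 0.690 (permutation p = 0.00215, adjusted p = 0.0929) and a Spearman rho of 0.726 (permutation p = 0.00167, adjusted p = 0.0878), and r was 0.659 without the 2 libraries farthest from the median marker sum. Within the 9 libraries of low number r was 0.658, and within the 7 of high number it was 0.533. The 3 highest platelet sums belonged to +/12 replicate 1 (2026 scaled FPKM), 12/- replicate 3 (1569) and +/vg replicate 3 (1501), each of which had the highest Psen2 value of its genotype. Of these, +/12 replicate 1 is the library with the other Psen2 transcript, NM_011183. That transcript carried 0.0765% of the Psen2 FPKM in 12/- replicate 3 and 0.0495% in +/vg replicate 3. The part of platelet RNA in the Psen2 values was not tested.

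Adam17 gave an r of 0.700 with the pan-endothelial sum (permutation p = 0.00258, adjusted p = 0.0929) and a rho of 0.718 (permutation p = 0.00244, adjusted p = 0.0878). Without the 2 libraries farthest from the median r was 0.699, and it was 0.503 within the low and 0.497 within the high numbers. In 12/- the libraries fell in the same order for both measures, with Adam17 at 12.5, 11.0 and 9.35 beside pan-endothelial sums of 814, 734 and 643. Ncstn gave a Pearson r of 0.643 with the same sum (permutation p = 0.00731, adjusted p = 0.175), and 0.395 without the 2 libraries farthest from the median. Its r was 0.706 within the low and -0.207 within the high numbers. The share of endothelial cells in a library was not measured, and its part in the Adam17 and Ncstn values was not tested.

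**Figure D4:**
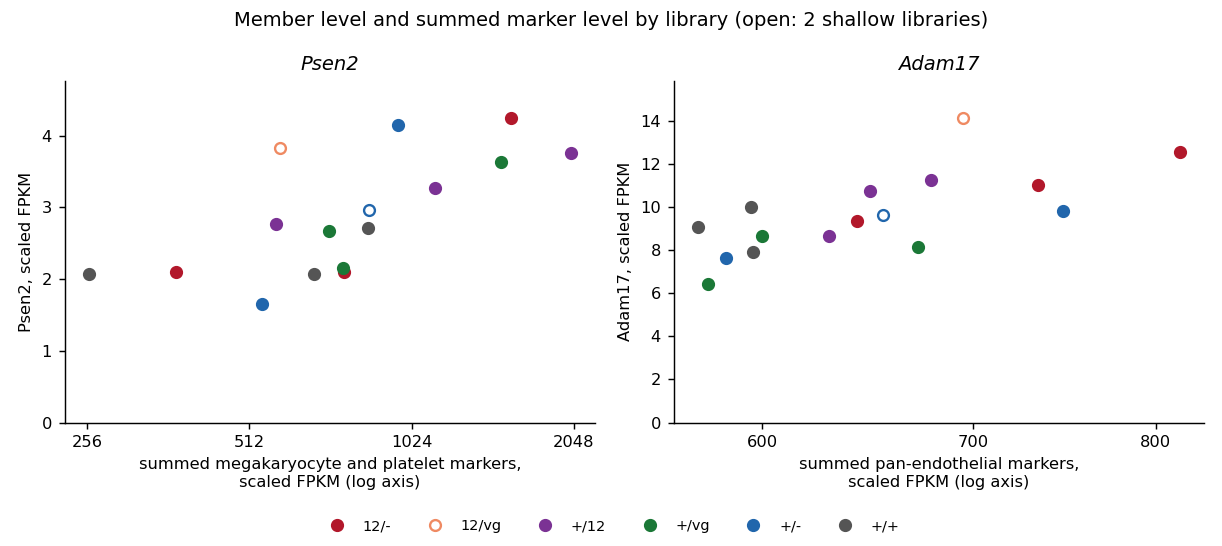
Left, Psen2 against the summed level of 6 megakaryocyte and platelet markers; right, Adam17 against the summed level of 8 pan-endothelial markers, in 16 libraries, all in scaled FPKM with log horizontal axes. Colours are genotypes and open points the 2 shallow libraries. Both genes tend to be higher where the marker sum is higher (Pearson r of 0.690 and 0.700), and neither relation passed adjustment over 72 relations.

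For each gene, the 3 tested genes with the most similar log2 levels over the 16 libraries were listed, out of 9506 candidates, as a description of these libraries. Libraries share depth, sorting and number range, so such likeness is not a finding on its own. For Psen2 these were Fcer1g (Pearson r 0.854), an Fc receptor chain of blood cells, Myom1 (0.845), a sarcomere protein, and Rgs18 (0.843), a regulator of G-protein signalling in platelets. For Adam17 they were Itpr3 (0.868), a calcium channel of the endoplasmic reticulum, Coro2b (0.866) and the kinase gene Csnk1g2 (0.843). For Ncstn they were Zfp41 (0.876), Caskin2 (0.826) and Sema6b (0.820), a semaphorin.

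Adam10 was most similar to Fbln2 (0.859), which encodes a matrix fibulin, Stim1 (0.850), a calcium sensor, and Phactr2 (0.827). Rbpj was most similar to the Polycomb-related gene Pcgf3 (0.872), the nuclear import factor Ipo7 (0.861) and the fatty acid elongase Elovl5 (0.860). Maml1 lay closest to the transcriptional repressor Cic (0.806), Fam43a (0.805) and the transcription factor Sox4 (0.788). Maml2 lay closest to Mgea5 (0.921), Zfr (0.885) and Cox7b (0.884), values that were 0.787, 0.707 and 0.777 without the 2 shallow libraries. Maml3 was nearest to Pcgf2 (0.880), Mapk8ip3 (0.867) and Rrp1 (0.857), and Fbxw7 to Ttc28 (0.869), Camsap1l1 (0.812) and the deubiquitinase Usp1 (0.776). No gene of the 9 was among the nearest 3 of another.

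Other genes that act at these steps were taken from 5 lists with 47 members, all in the deposited tables, of which 39 passed the filter. None of the 39 was called in limma in any of the 7 comparisons or in the F test, where the smallest adjusted p was 0.325. At an unadjusted p under 0.05 there were 3, 5, 5 and 7 of 39 in 12/- against +/12, +/+, +/- and the mean of the 4 normal groups, and 2 each in +/12, +/vg and +/- against +/+.

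Among 8 tested genes of receptor processing and control of the Adam proteases, the smallest p belonged to Timp3, an inhibitor of metalloproteases including Adam17. It averaged 62.7 ± 7.44 scaled FPKM in 12/- and 47.8 ± 9.64 in the 4 normal groups, and it differed by 0.71 ± 0.17 on the log2 scale in 12/- against +/+ (limma adjusted p = 0.0940). It also differed by 0.58 ± 0.17 in +/vg (adjusted p = 0.405) and 0.43 ± 0.17 in +/12 (limma adjusted p = 0.898) against the same +/+ libraries. Among the 7 tested coactivators, Med12, a Mediator subunit, had 5.46 ± 0.636 in 12/- and 7.12 ± 1.02 in the 4 normal groups (log2 difference -0.32 ± 0.10, limma adjusted p = 0.220). Ep300 and Crebbp, the acetyltransferases that the Mastermind-like proteins recruit, had 9.67 ± 0.988 and 16.9 ± 1.24 in 12/-, against 10.0 ± 1.58 and 19.1 ± 2.21 in the 4 normal groups.

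Among the 13 corepressors, all tested, Sap30, a subunit of the Sin3 histone deacetylase complex, had 31.5 ± 2.56 scaled FPKM in 12/- and 21.3 ± 3.61 in the 4 normal groups (log2 difference 0.56 ± 0.14, limma adjusted p = 0.0946). L3mbtl3, which links Rbpj to a histone demethylase, had 4.38 ± 1.18 in 12/- and 5.72 ± 0.633 in the 4 normal groups (log2 difference -0.34 ± 0.13, limma adjusted p = 0.332). Among the 8 tested genes of receptor endocytosis and ubiquitin ligases, Cul1, the scaffold of the ligase to which Fbxw7 belongs, had 19.9 ± 0.884 in 12/- and 23.4 ± 2.79 in the 4 normal groups (log2 difference -0.22 ± 0.11, limma adjusted p = 0.493). Skp1a, which links Fbxw7 to Cul1, had 68.9 ± 9.07 in 12/- and 70.6 ± 9.76 in the 4 normal groups, and Rbx1, the ring subunit, had 40.7 ± 3.18 in 12/- and 40.9 ± 4.48 in the 4 normal groups.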

How the data were processed

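For each of the 16 libraries the authors deposited a table of 28107 RefSeq transcripts. It holds FPKM and coverage columns with a fit status, and its columns are those of cufflinks, per the file headers. The submitters' processing notes name TopHat2 2.0.9 and the build mm9; no source used here gives a cufflinks version or says whether libraries were stranded. The deposited coverage is mean read depth over a transcript, and its constant ratio to FPKM within a library gave the aligned gigabases. Counts are not in the tables, so no count test was used.

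Transcript FPKM was summed per symbol (Python 3.11.15, pandas 2.3.3). The 211 symbols with a status other than OK were left out, and the 10550 with a mean FPKM of at least 1 were tested, after median-ratio scaling over 8610 genes, as log2(scaled FPKM + 1). limma 3.58.1 in R 4.3.3 (eBayes with trend, two-sided, 6 groups, 10 residual degrees of freedom) gave p-values adjusted over all genes tested, and an adjusted p under 0.05 was a call. The fit was also run on simulated data that held no effect of the number range, and no result here rests on that run. Start positions were read as counting from 0 and are printed from 1. Differences understate changes of low genes.

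All 9 genes are described, called or not. Of other pathway genes, up to 2 per list and comparison, the smallest p in each direction, could be given as not passing; further subunits and acetyltransferases were chosen after their values were seen. The 9 genes and all lists were chosen with earlier results of these data known. A gene of the γ-secretase list is not reported here. The labels spell the wild-type genotype in 2 ways, taken as 1 group. Alternatives were other scalings, pseudocounts, filters and weights, a covariate for the number range, the highest transcript alone, the compared groups alone, and leaving out libraries.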

Additional observations from a re-analysis of the deposited data

How the results depend on the processing

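None of the 9 genes was called in 207 of 208 counts over 8 tests and 26 alternatives; the exception was Maml3 in 12/- against +/+ without +/+ replicate 1, so that count ran from 0 to 1 over the libraries left out. Of 27 log2 differences followed, 21 kept their sign throughout. Psen2 in 12/- against the mean of the 4 normal groups became 0.035 with no scaling, 0.10 with the highest transcript only and -0.35 with the number range as a covariate, and it ran from -0.28 to 0.11 over the libraries left out. Rbpj in the same comparison became 0.035 with no scaling and 0.0071 with the number range as a covariate, and ran from -0.11 to 0.088. Maml1 there ran from -0.079 to 0.17, and Adam10 in 12/- against +/+ from -0.21 to 0.061 over the libraries left out and -0.50 with the covariate. With the covariate Fbxw7 in 12/- against +/+ became 0.048 and Psen2 in +/12 against +/+ -0.18, which was -0.11 with the highest transcript only. The cause was not tested.

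Genes called among all tested moved more. In 12/- against +/12 (22) there were 40 without the 2 shallow libraries, 3 with the groups fitted alone, 35 with the covariate and 92 with array weights. Against +/+ (64) there were 112, 41, 23 and 143, and 42 with the highest transcript only. Against +/- (60) there were 5 with the groups alone, 35 with the covariate and 36 with the highest transcript. Against the mean of the 4 normal groups (83) there were 137 without the shallow libraries, 47 with the covariate and 249 with array weights, and in the F test (32) 73 with array weights. In the 3 comparisons of single altered alleles with +/+ (0 each), 1 was called in +/12 with the covariate, 1 in +/vg with no filter or the groups alone and 3 with array weights, and 1 in +/- with no filter, the groups alone or the highest transcript. Over the libraries left out the counts ran from 11 to 40, 20 to 112, 19 to 156 and 28 to 140 in the 4 comparisons of 12/- (lowest without 12/- replicate 1, highest without +/- replicate 2, or, against +/-, without +/- replicate 3), from 0 to 2, 0 to 3 and 0 to 4 in +/12, +/vg and +/-, and from 12 to 44 in the F test. No paired analysis was possible because the labels give no replicate numbers; those used here follow accession order. Depth limits the values of the 2 shallow libraries, where the mean read depth was 0.424 to 1.49 over Maml2, Psen2, Fbxw7 and Maml3.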
